A study of Mus with 8 samples.

Results

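Cytosolic ribosomal protein genes were examined in whole subcutaneous tumours of MC38 cells. They were taken as every probe whose RefSeq NM transcript belongs to a mouse gene named Rpl or Rps plus a number, with at most one suffix (a, x, l or l1), or to Rplp0, Rplp1, Rplp2 or Rpsa. Rps6k kinases and pseudogenes were left out. This gave 142 probes of 83 genes, of which 82 genes were among the 31281 genes and transcripts that passed the filter on dim probes. The gene left out was Rpl10l, a paralog of Rpl10 known from male germ cells, whose single probe was well above background on 0 of 8 arrays. Of the 83 genes, 76 encode the standard proteins of the ribosome, 30 in the small and 46 in the large subunit. The other 7 (Rpl3l, Rpl7l1, Rpl10l, Rpl22l1, Rpl32l, Rpl39l and Rps27l) are copies encoded by a second gene and are called paralogs here.

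The cytosolic ribosome makes nearly all proteins of a cell. Its small subunit reads the mRNA and its large subunit joins the amino acids. Most ribosomal proteins are present in equal number per ribosome, and their mRNAs tend to be made in balanced amounts. Most of these mRNAs begin with a terminal oligopyrimidine (TOP) tract, through which their translation is controlled together by growth signals. Ribosomal protein mRNAs are among the most abundant in dividing cells, and several have second genes used in muscle, germ cells or immune cells.

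MC38, a line of mouse colon cancer cells, was grafted under the skin of 4 wild-type mice (WT host) and 4 Ext1 flox/flox mice carrying S100a4-Cre (Ext1S100a4Cre host), all labelled B6. Tumours were removed 25 to 30 days after transplantation, and total RNA of the whole tumour was hybridised to a 1-colour Agilent array. The same cell line was grafted in both groups. Because S100a4 drives the Cre gene, Cre is made in host cells that express S100a4, among them fibroblasts and immune cells, while the graft keeps Ext1. Which host cells lost Ext1 was not tested, and the labels give neither age nor sex of the mice. Whole tumours mix cancer and host cells, so fewer cells of a type and less RNA per cell cannot be told apart. The numbers of mice and arrays match, but the labels do not tie an array to a mouse, and p-values measure the spread between these samples.

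Tumours 1 and 4 of the Ext1S100a4Cre host stood apart from the other 6 in 2 measures of the array. The 75th percentile of intensity, to which each array was scaled, was 854.8 and 846.9 on their arrays and 1017 to 1265 on the others. The share of probes well above background was 65.7% and 66.0% there and 68.8% to 71.1% elsewhere. By single genes WT host tumour 3 was also extreme, being the lowest for 31.8% and the highest for 19.8% of all genes tested. These shares were 15.6% and 23.6% in Ext1S100a4Cre host tumour 1 and 9.7% and 15.8% in tumour 4. The 4 Y chromosome genes tested (Ddx3y, Eif2s3y, Kdm5d and Uty) had a median 3.07 and 3.05 log2 units below their means over 8 tumours in these 2 tumours, and each was well above background on 6 of 8 arrays, 4 of them of the WT host. In tumours 1 and 4 they measured -8.65 to -8.15, near the undetected Rpl10l probe (-8.51 in the WT host), and in the other 6 tumours -6.59 to -0.40. Whether these 2 hosts differed in sex from the others was not tested, since the labels do not give it. All 10 macrophage, all 10 fibroblast and all 8 T and NK cell markers had lower means in the Ext1S100a4Cre host, as had 4 of 6 B cell markers. These 4 did not overlap between hosts (1.14% of all genes in that direction), and 0 passed limma's adjustment. Of them Ms4a1 was well above background on 4 WT host and 0 Ext1S100a4Cre host arrays. It passed the filter only through the WT host, where it was high. All 6 erythrocyte markers tested had higher means, by a median of 1.88. Of them 5 had unadjusted p under 0.05 (4.39% of all genes in that direction) and 0 passed limma's adjustment. Erythrocyte markers were highest in Ext1S100a4Cre host tumours 2 and 1 (medians 3.27 and 1.71 above the mean over 8 tumours). The summed macrophage level, as a multiple of the 75th percentile, ran from 27.9 to 154 in the WT host and from 5.45 to 49.1 in the Ext1S100a4Cre host, with the lowest values in tumours 1 and 4 (5.45 and 19.25). The summed fibroblast level ran from 116 to 504 and from 15.7 to 196, with tumours 1 and 4 at 15.7 and 72.0. For 8 epithelial markers, the type of the grafted cells, the sum ran from 72.0 to 114 and from 66.5 to 132, with 5 of 8 higher in the Ext1S100a4Cre host; all but Cdx1 were well above background on all 8 arrays. The part of these differences in the results below was not tested.

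After scaling, the ribosomal protein genes were highest together in those same 2 tumours. Each gene's log2 value was set against its mean over the 8 tumours. The median of the 76 standard members was 0.34 above that mean in Ext1S100a4Cre host tumour 1 and 0.21 above it in tumour 4. It was -0.04 and -0.09 in tumours 2 and 3 of that host, and -0.10, -0.15, -0.12 and -0.05 in WT host tumours 1 to 4. Tumours 1 and 4 of the Ext1S100a4Cre host were the 2 highest for 74 of the 76 members, and tumour 1 was the highest for 74, whereas over all genes tested it was the highest for 23.6%.

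**Figure D1:**
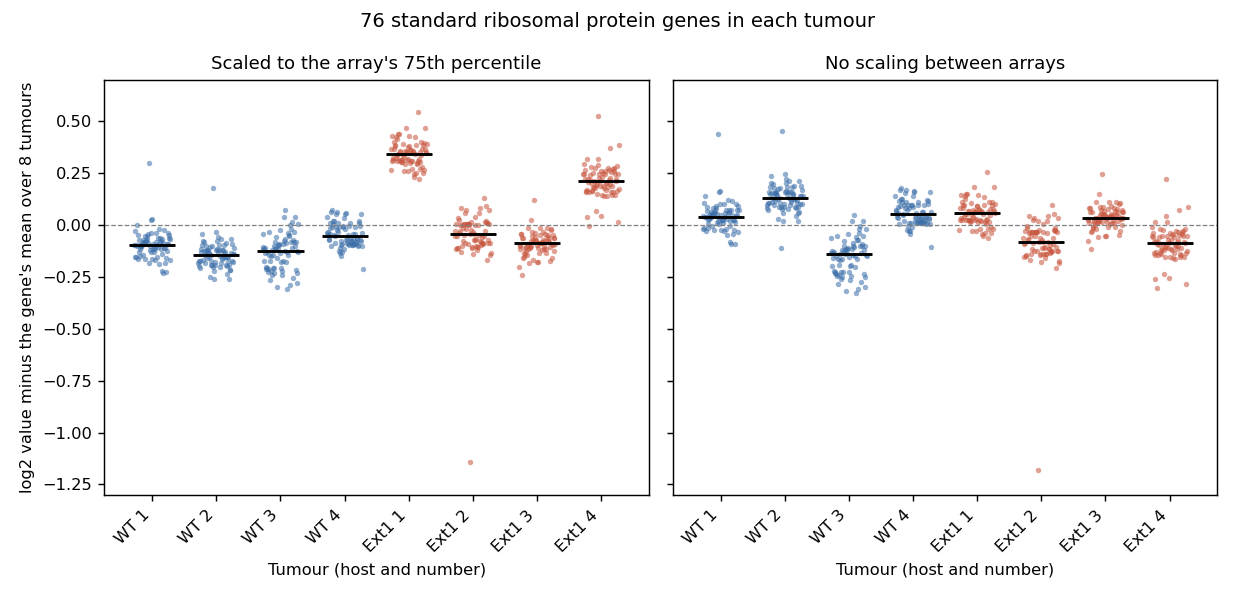
Each point is 1 of the 76 standard ribosomal protein genes in 1 tumour, as its log2 value minus that gene's mean over the 8 tumours; black bars are medians, WT 1 to WT 4 are WT host and Ext1 1 to Ext1 4 Ext1S100a4Cre host tumours. On the left (scaled) the medians of Ext1S100a4Cre host tumours 1 and 4 stand at 0.34 and 0.21 and the other 6 between -0.15 and -0.04, while on the right (unscaled) all 8 lie between -0.14 and 0.13. The single low point of tumour 2 is Rpl37.

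Across hosts, 78 of 82 members (95.1%) had a higher mean in the Ext1S100a4Cre host, against 58.1% of all genes tested, and the median member stood 0.21 log2 units higher against 0.05 over all genes. In log2 units above the 75th percentile, the standard members averaged 7.12 ± 0.043 (SD, n = 4) in tumours of the WT host. Their average in tumours of the Ext1S100a4Cre host was 7.32 ± 0.21 (SD, n = 4). No member passed: limma's adjusted p was 0.747 or more for each, and 0 of 82 were called, as were 0 of 31281 genes (background 0%). At unadjusted p under 0.05 there were 2 members (2.44%), Rpl32l and Rpl32, both higher, against a background of 4.39% of all genes higher, and 0 members lower against 2.16%. The hosts did not overlap for 14 members (17.1%), all higher in the Ext1S100a4Cre host, against 3.38% of all genes in that direction, and for 0 members in the other direction against 1.14%. Without Ext1S100a4Cre host tumours 1 and 4 the median difference of the members was 0.04, with 60 of 82 higher. Without tumours 2 and 3 it was 0.38, with 80 of 82 higher. In that fit 63 members had unadjusted p under 0.05 (all genes 17.1%, against 6.55% with all 8 tumours), and the lowest adjusted p was 0.281. Tumours 1 and 4 are those in which these same members were highest, so keeping only them raises the counts by construction. These 2 fits describe the split and are no test of the members.

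The height of these genes in tumours 1 and 4 depends on the scaling between arrays. Before scaling, the medians of the standard members in tumours 1 to 4 were 0.06, -0.08, 0.04 and -0.09 in the Ext1S100a4Cre host and 0.04, 0.13, -0.14 and 0.05 in the WT host, so that the hosts overlap. Over all genes tested the medians in Ext1S100a4Cre host tumours 1 and 4 were -0.19 and -0.23 before scaling. With scaling they were 0.10 and 0.07, so the members stood above all genes in these tumours either way. The unscaled members then differed by a median of -0.04, with 18 of 82 higher (background 20.8%), 0 without overlap (background 0.291% higher and 4.55% lower) and 0 at unadjusted p under 0.05 (background 8.72%). All genes tested differed by a median of -0.20 without scaling and by 0.05 with it. The members stood 0.155 above all genes in both cases, which the construction fixes, since subtracting 1 value from every gene of an array cannot change it. With quantile normalization, which gives every array the same distribution of values, the members differed by 0.02 and all genes by 0.03. With normexp background correction, which changes values gene by gene, the members stood 0.082 above all genes, and with quantile normalization the gap was -0.0060.

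**Figure D2:**
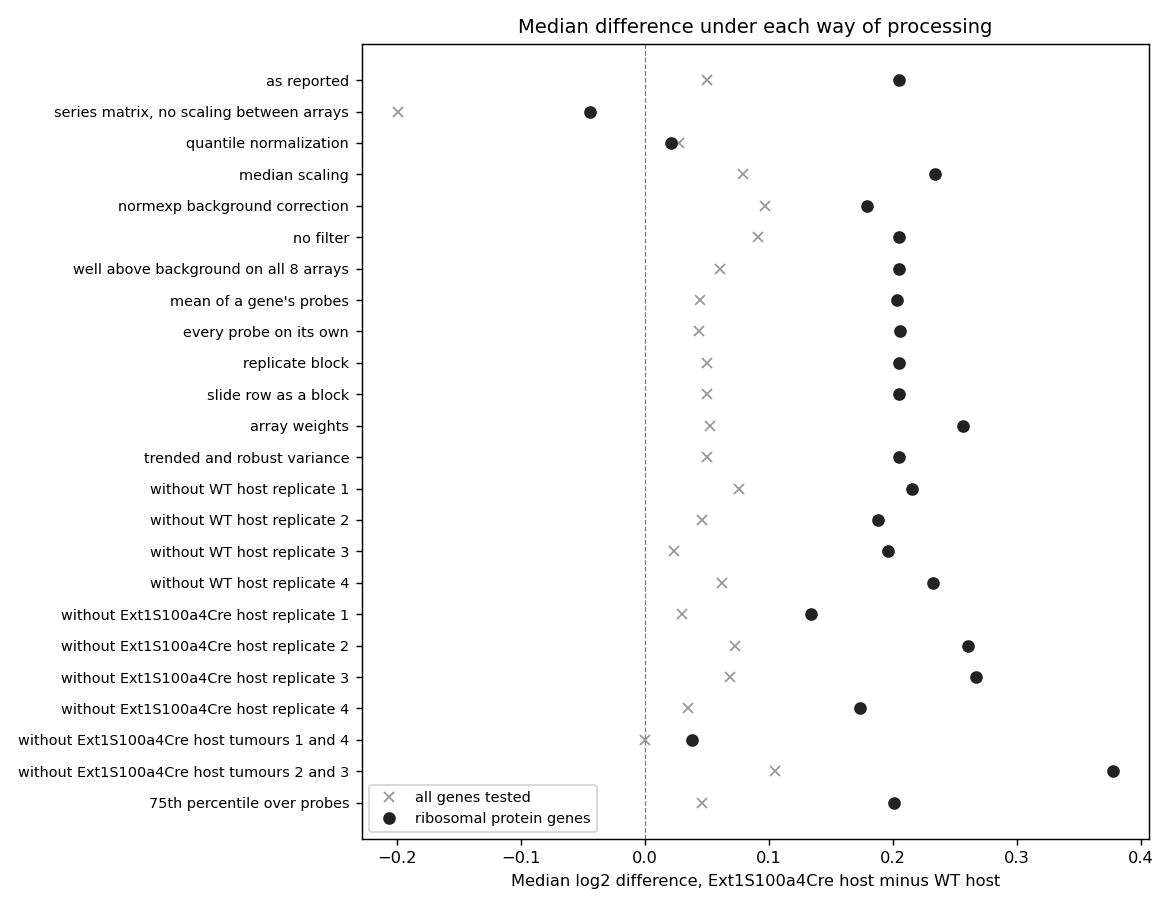
Median log2 difference between hosts (x axis, Ext1S100a4Cre minus WT) of the ribosomal protein genes (dots) and of all genes tested (crosses) under each way of processing and with tumours left out. The ribosomal genes stand at 0.21 as reported, -0.04 without scaling, 0.02 with quantile normalization, 0.04 without Ext1S100a4Cre host tumours 1 and 4 and 0.38 without tumours 2 and 3.

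The spread of the members within a host depended on the scaling. With it, the median SD of a standard member between tumours was 0.072 in the WT host and 0.21 in the Ext1S100a4Cre host, and 75 of 76 members had the larger SD in the latter. Over all genes tested the median SDs were 0.28 and 0.30, and 57.0% had the larger SD in the Ext1S100a4Cre host. Without scaling the order turned: the median SD was 0.12 in the WT host and 0.089 in the Ext1S100a4Cre host, and 60 of 76 members had the larger SD in the WT host. For the 32 standard members read from a probe printed as 10 spots, the SD between spots of an array was 0.037 at the median (0.021 to 0.072 by probe), a value that leaves out the error of labelling, hybridisation and scaling between arrays.

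Among the 30 small subunit proteins all had a higher mean in the Ext1S100a4Cre host, by 0.13 to 0.35 log2 units with a median of 0.21, and 0 passed. Rps2, which lies near the mRNA entry of the small subunit, had the largest difference. It measured 6.21, 6.34, 6.14 and 6.33 in WT host tumours 1 to 4, and 6.97, 6.34, 6.29 and 6.80 in Ext1S100a4Cre host tumours 1 to 4. Tumours 1 and 4 were high and tumours 2 and 3 within the WT range or at its edge, so the hosts overlapped, and the difference was 0.35 (SE 0.18, limma adjusted p = 0.747).

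Rps26, which contacts the mRNA at the exit side, measured 7.56, 7.50, 7.42 and 7.61 in the WT host and 8.07, 7.69, 7.60 and 7.95 in the Ext1S100a4Cre host. Only tumour 3 of the latter fell within the WT range, and the difference was 0.30 (SE 0.14, limma adjusted p = 0.747). Rps6, the protein phosphorylated by S6 kinases downstream of mTOR, measured 7.25, 7.25, 7.11 and 7.26 in the WT host and 7.70, 7.34, 7.29 and 7.50 in the Ext1S100a4Cre host. Its hosts did not overlap, by a margin of tumour 3 over WT host tumour 4 that is smaller than the spread within either host, and the difference was 0.24 (SE 0.13). Rps13 had the smallest SD over the 8 tumours of all members (0.12). It measured 7.05, 6.99, 7.03 and 7.05 in the WT host and 7.35, 7.11, 7.08 and 7.25 in the Ext1S100a4Cre host.

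Rps28, one of the smallest proteins of the subunit, differed by 0.25 (SE 0.12) without overlap. Rps27, a zinc finger protein, measured 7.62, 7.54, 7.73 and 7.73 in the WT host and 8.14, 7.89, 7.69 and 8.06 in the Ext1S100a4Cre host, where only tumour 3 lay within the WT range, with a difference of 0.29 (SE 0.14). Rps27a, which is made as a fusion to ubiquitin, differed by 0.24 (SE 0.15). Rpsa, which also serves as a laminin receptor at the cell surface, measured 7.37, 7.30, 7.31 and 7.23 in the WT host and 7.83, 7.31, 7.35 and 7.83 in the Ext1S100a4Cre host. Here tumours 1 and 4 were alike and tumours 2 and 3 lay inside the WT range, with a difference of 0.27 (SE 0.16). Rps4x, on the X chromosome, measured 6.51, 6.47, 6.39 and 6.60 in the WT host and 7.005, 6.54, 6.52 and 6.82 in the Ext1S100a4Cre host. Its difference was 0.23 (SE 0.15), and tumours 2 and 3 again lay inside the WT range. None of these passed, and the limma adjusted p was 0.747 for each.

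Among the 46 large subunit proteins 45 had a higher mean in the Ext1S100a4Cre host, by up to 0.30 log2 units with a median of 0.21, and 0 passed. Rpl32 was the standard member with the smallest unadjusted p. It measured 7.75, 7.64, 7.62 and 7.70 in the WT host and 8.22, 7.83, 7.85 and 8.01 in the Ext1S100a4Cre host. All 4 values of the latter lay above all 4 of the former, tumours 2 and 3 by little, and the difference was 0.30 (SE 0.13, 95% interval 0.00325 to 0.60, limma adjusted p = 0.747, unadjusted 0.0481). It was 0.05 without scaling. Rpl38 differed by 0.27 (SE 0.13), also without overlap.

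The proteins of the stalk, the arm of the large subunit that recruits elongation factors, are Rplp0, Rplp1 and Rplp2. Rplp0, often used as a reference gene, had the tightest values of the WT host, at 7.38, 7.40, 7.40 and 7.43, and measured 7.81, 7.42, 7.45 and 7.67 in the Ext1S100a4Cre host. Its difference was 0.19 (SE 0.13, limma unadjusted p = 0.184, limma adjusted p = 0.747, exact two-sided permutation p = 0.0571). Rplp1 measured 7.10, 7.14, 7.31 and 7.22 in the WT host and 7.53, 7.16, 7.25 and 7.41 in the Ext1S100a4Cre host. Rplp2 measured 8.12, 7.95, 8.08 and 8.06 in the WT host and 8.46, 8.09, 8.07 and 8.41 in the Ext1S100a4Cre host. In all 3 stalk genes tumours 1 and 4 were the highest, and tumours 2 and 3 lay within the WT range except for tumour 3 in Rplp0, which was slightly above it. The differences of Rplp1 and Rplp2 were 0.15 (SE 0.13) and 0.21 (SE 0.14).

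Rpl5 and Rpl11, which with the 5S rRNA bind Mdm2 when ribosome assembly fails, both had differences below the median of the members. Rpl5 measured 5.998, 5.94, 5.83 and 6.01 in the WT host and 6.35, 5.83, 5.79 and 6.02 in the Ext1S100a4Cre host, with only tumour 1 well above the WT range. Its difference of 0.05 (SE 0.15, 95% interval -0.30 to 0.40) was the smallest of the standard members other than Rpl37. Rpl11 differed by 0.17 (SE 0.14), and the difference between these 2 genes was not tested. Rpl10, on the X chromosome, measured 7.83, 7.74, 7.88 and 7.96 in the WT host and 8.19, 7.89, 7.72 and 8.17 in the Ext1S100a4Cre host, and differed by 0.14 (SE 0.14). The fit of Rpl36a dropped WT host tumour 2, where its spot was an outlier, and with 7 tumours the hosts overlapped.

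Rpl37 was the standard member that did not follow the others. Its single probe was dim, at an intensity of 51.6 to 160 and it was well above background on all 8 arrays. It measured -2.86, -2.98, -3.46 and -3.31 in the WT host and -2.69, -4.30, -3.04 and -2.63 in the Ext1S100a4Cre host. Tumour 2 of the latter was the lowest, and the difference was -0.01 (SE 0.37, 95% interval -0.86 to 0.84), an interval wide enough to hold the difference of every other standard member.

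**Figure D3:**
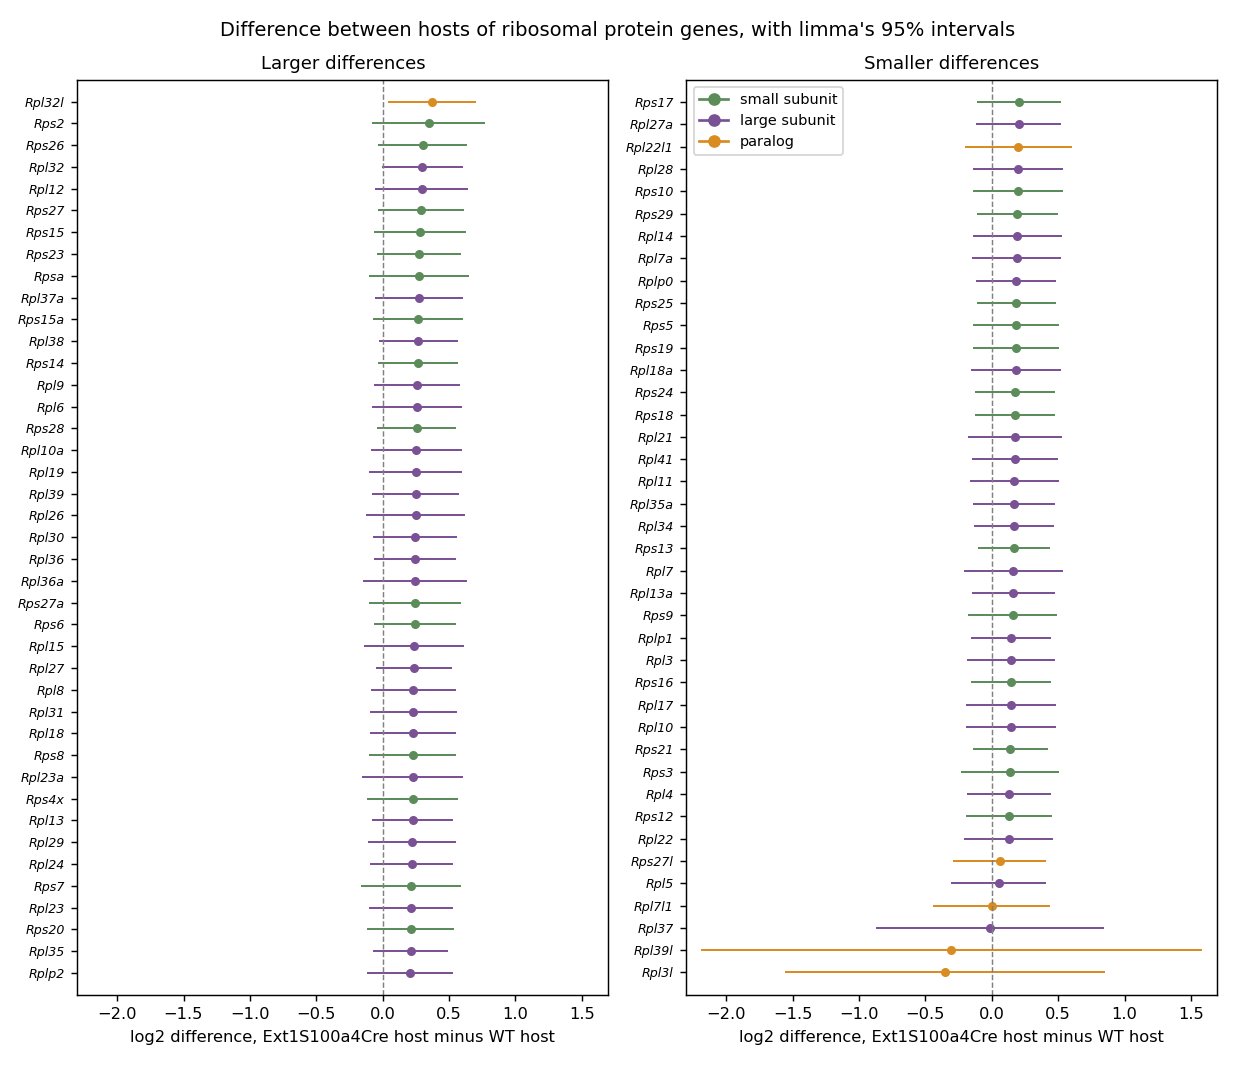
Log2 difference between hosts (x axis, Ext1S100a4Cre minus WT) of the ribosomal protein genes drawn, with limma's 95% intervals as lines, in order of difference and split over 2 panels. The intervals of Rpl32 and of the paralog Rpl32l lie above 0, all others drawn span 0, and Rpl37, Rpl39l and Rpl3l have the widest intervals.

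How far single members left the block was read from each gene's value minus the median of the standard members on the same array, a measure that no scaling of whole arrays can change. By it 71 of 76 standard members differed between hosts by less than 0.1 log2 units, over a range of -0.21 (Rpl37) to 0.15 (Rps2). Rps26 stood 0.24, 0.20, 0.12 and 0.25 above the block in the WT host and 0.28, 0.31, 0.28 and 0.35 above it in the Ext1S100a4Cre host, a difference of 0.10 without overlap. These values are a description, and no test was run on them. The small and the large subunit kept step: the mean deviation of small minus large subunit members was -0.0063 ± 0.033 over the WT host and 0.0070 ± 0.012 over the Ext1S100a4Cre host (SD, n = 4 each).

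Of the 141 member probes kept, 137 had a higher mean in the Ext1S100a4Cre host, so a shared sign says little about a gene's probes. For 44 genes with 2 to 5 probes (103 in all) the differences of a gene's probes lay within 0.1 log2 units for 38, with a median range of 0.040. The widest range was that of Rps24, whose 3 probes gave 0.18, 0.19 and 0.43. The files do not give probe sequences, and ribosomal protein genes have many processed pseudogenes and near-identical copies, so signal from such copies cannot be told apart from that of the named gene.

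The paralogs differed among themselves. Of 6 tested, 3 had a higher and 3 a lower mean in the Ext1S100a4Cre host. Rpl32l, a near copy of Rpl32, measured 7.21, 7.10, 7.01 and 7.23 in the WT host and 7.78, 7.42, 7.28 and 7.55 in the Ext1S100a4Cre host, without overlap. Its difference was 0.37 (SE 0.14, unadjusted p = 0.0302, limma adjusted p = 0.747), and whether its probe also reads Rpl32 was not tested.

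Rpl3l replaces Rpl3 in heart and skeletal muscle. It measured -2.71, -2.72, -4.98 and -2.58 in the WT host and -3.61, -3.40, -3.43 and -3.96 in the Ext1S100a4Cre host. WT host tumour 3 was the lowest of all, the other 3 WT host tumours were the highest, and the difference was -0.35 (SE 0.52). Without WT host tumour 3 it was -0.93, with array weights -0.89 and with normexp background correction -0.22. The probe of Rpl3l was dim, at an intensity of 32.5 to 192. Skeletal muscle markers had their highest medians in Ext1S100a4Cre host tumours 2 and 3 (1.71 and 2.82 above their means over 8 tumours), where Rpl3l did not reach the level of WT host tumours 1, 2 and 4. All 11 muscle markers tested had higher means in the Ext1S100a4Cre host, with sums of 5.70 to 29.1 against 2.81 to 5.25. Of them Mb was well above background on 1 WT host and 4 Ext1S100a4Cre host arrays, and passed the filter only through the latter. Rpl3 itself measured 6.98, 6.88, 6.89 and 7.10 in the WT host and 7.34, 6.95, 6.92 and 7.22 in the Ext1S100a4Cre host, a difference of 0.15 (SE 0.14).

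Rpl39l, a paralog of Rpl39 known from male germ cells and some cancer cells, varied most of all members (SD 1.24 over 8 tumours). It measured -2.21, -2.36, -1.46 and -3.19 in the WT host and -4.34, -1.67, -0.65 and -3.77 in the Ext1S100a4Cre host. Tumours 1 and 4 of the Ext1S100a4Cre host, in which the standard members were highest, were the lowest for Rpl39l, while tumour 3 of that host was above all and tumour 2 above 3 of the 4 WT host values. The difference was -0.30 (SE 0.82, limma adjusted p = 0.927) and became 1.15 without tumours 1 and 4. With normexp background correction it was -0.054. The probe of Rpl39l was dim in tumours 1 and 4, at an intensity of 42.1 and 61.9, against 123 to 728 in the other tumours. Of the 6 germ cell markers, Dazl and Sycp3 were well above background on 0 of 8 arrays, and the 4 tested (Ddx4, Prm1, Prm2 and Tnp1) had a median difference of -0.42. Rpl39 measured 7.64, 7.51, 7.67 and 7.76 in the WT host and 8.12, 7.75, 7.71 and 7.997 in the Ext1S100a4Cre host, a difference of 0.25 (SE 0.14).

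Rpl22l1, which can stand in for Rpl22, measured 5.61, 5.45, 5.27 and 5.58 in the WT host and 5.99, 5.46, 5.41 and 5.85 in the Ext1S100a4Cre host, a difference of 0.20 (SE 0.17). Rpl22 measured 6.07, 6.02, 6.14 and 6.19 in the WT host and 6.51, 6.04, 6.06 and 6.33 in the Ext1S100a4Cre host, a difference of 0.13 (SE 0.14). In both genes tumours 1 and 4 were the 2 highest.

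Rpl7l1, which acts in ribosome assembly, had a mean of -0.13 in both hosts (SD 0.24 and 0.28, n = 4 each). Its tumours measured 0.033, 0.10, -0.41 and -0.25 in the WT host and 0.23, -0.072, -0.43 and -0.25 in the Ext1S100a4Cre host. Rpl7 measured 7.33, 7.30, 7.24 and 7.47 in the WT host and 7.85, 7.35, 7.24 and 7.56 in the Ext1S100a4Cre host, a difference of 0.16 (SE 0.16). Rps27l, a copy of Rps27 known as a target of p53, measured 5.52, 5.53, 5.51 and 5.24 in the WT host and 5.73, 5.34, 5.32 and 5.66 in the Ext1S100a4Cre host. The hosts overlapped, and the difference was 0.06 (SE 0.15).

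Whether a paralog changed unequally to its parent was tested on their log ratio within each array, for the 5 pairs of a list drawn up for this test in which both probes were measured. Rpl32l and Rpl32 were not on that list, and their ratio was not tested. For Rps27l over Rps27 the ratio averaged -2.20 ± 0.21 over the WT host and -2.43 ± 0.080 over the Ext1S100a4Cre host (SD, n = 4 each), a difference of -0.23 (exact two-sided permutation p = 0.114, adjusted over the 5 pairs 0.571). The ratios of Rpl3l to Rpl3, Rpl7l1 to Rpl7, Rpl22l1 to Rpl22 and Rpl39l to Rpl39 differed by -0.50, -0.16, 0.07 and -0.55, with exact permutation p of 0.514, 0.286, 0.60 and 0.60. Without WT host tumour 3 the ratio of Rpl3l to Rpl3 differed by -1.05. None of the 5 passed. The smallest unadjusted p this design allows is 0.0286, and a single pair at that value could not pass the adjustment over 5 pairs.

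**Figure D4:**
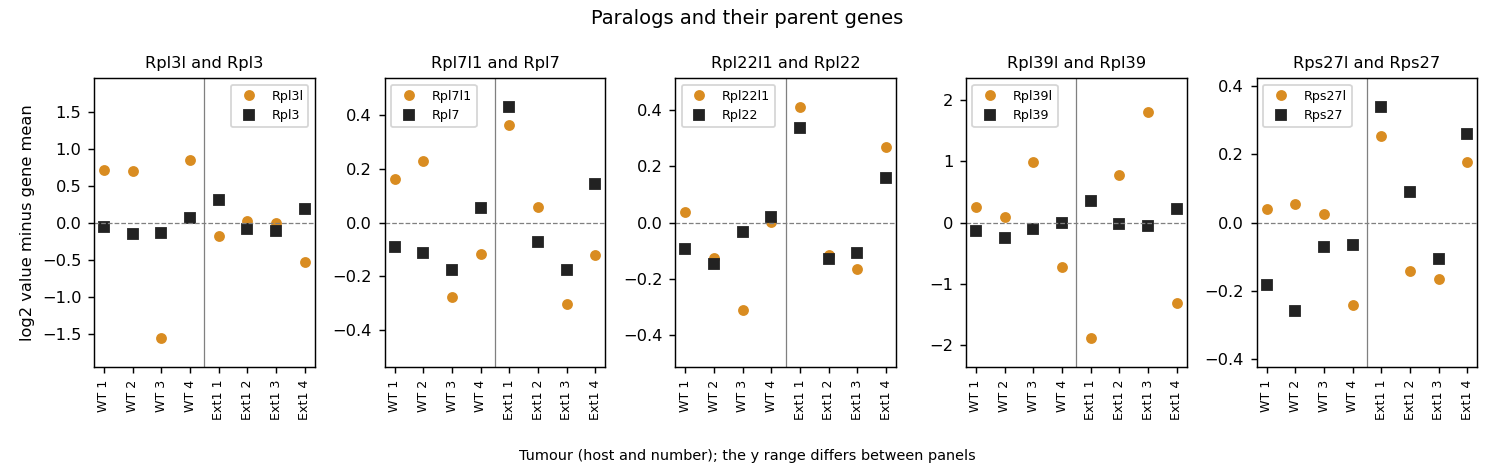
Log2 value minus the gene's mean over 8 tumours (y axis, a different range in each panel) of 5 paralogs (circles) and their parent genes (squares) in each tumour, with WT host tumours left and Ext1S100a4Cre host tumours (Ext1 1 to Ext1 4) right of the line. Rpl39l is lowest in Ext1S100a4Cre host tumours 1 and 4, where Rpl39 is highest, and Rpl3l is lowest in WT host tumour 3.

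Other genes of protein synthesis were, after scaling, high in the same 2 tumours. The lists were chosen from textbook knowledge. The 5 genes of cytosolic ribosomal proteins with other names, among them Fau and Rack1, all had higher means in the Ext1S100a4Cre host, with a median of 0.18, as had all 14 translation factors and partners whose mRNAs carry the TOP tract, with a median of 0.21. Of the latter, the splicing factor Hnrnpa1 differed by 0.31 (SE 0.17), the initiation factor subunit Eif3f by 0.23 (SE 0.13) and Tpt1 by 0.22 (SE 0.13). Of 28 genes of ribosome assembly 25 were higher with a median of 0.16. Those at unadjusted p under 0.05 were 2 of 28, both higher, against 4.39% of all genes tested in that direction. They were Polr1a, the large subunit of RNA polymerase I, at 0.61 (SE 0.16, limma adjusted p = 0.733), and Rrp9, a part of the U3 snoRNP, at 0.33 (SE 0.12, adjusted p = 0.747). Of these 2, Polr1a stood at 0.36 without scaling and Rrp9 at 0.08. Of 78 mitochondrial ribosomal protein genes, which encode a separate ribosome, 71 were higher with a median of 0.11. Among them 1 had unadjusted p under 0.05 and was higher, again against 4.39% of all genes. In all 4 lists 0 genes passed. Without scaling the 4 median differences were -0.07, -0.04, -0.09 and -0.14 in the order given, against -0.20 over all genes.

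In Ext1S100a4Cre host tumours 1 and 4 the medians of these lists, scaled, were 0.30 and 0.23 for the ribosomal proteins with other names, 0.35 and 0.19 for the TOP factors, 0.36 and 0.19 for ribosome assembly and 0.31 and 0.23 for the mitochondrial ribosome, against 0.10 and 0.07 over all genes. Without scaling, those of tumour 1 were 0.01, 0.07, 0.07 and 0.02 and those of tumour 4 -0.07, -0.11, -0.11 and -0.07, against -0.19 and -0.23 over all genes. In the other 6 tumours the 4 scaled medians lay between -0.35 and 0.06. The lowest was that of ribosome assembly in WT host tumour 3, the tumour with the highest summed macrophage and fibroblast levels, in which the standard ribosomal proteins stood at -0.12.

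**Figure D5:**
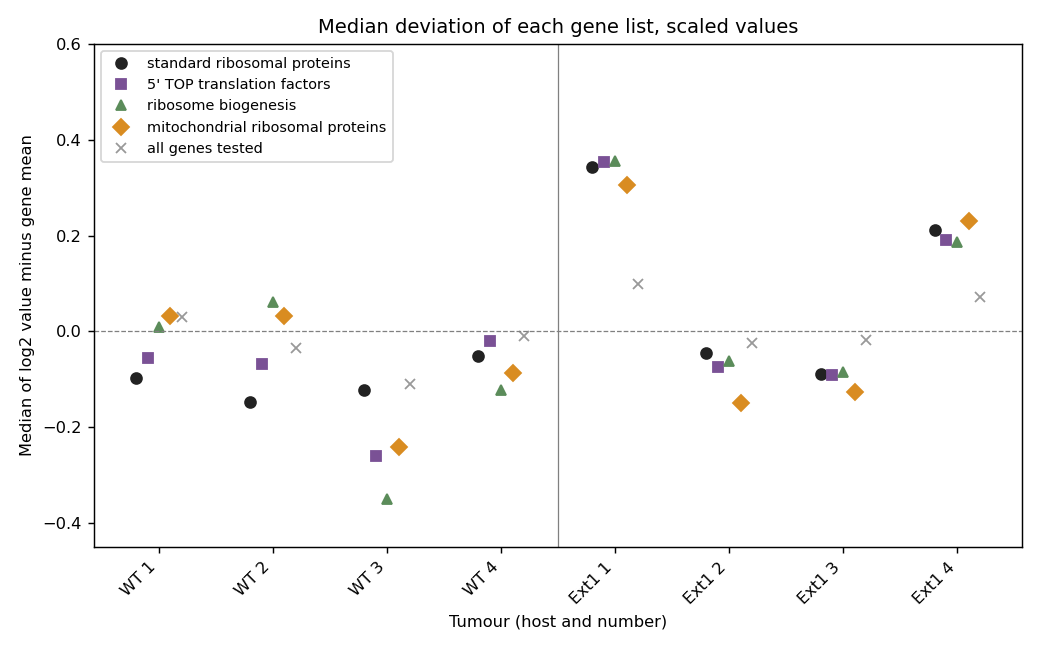
Median, over the genes of a list, of the scaled log2 value minus the gene's mean over 8 tumours (y axis) in each tumour, with WT host left and Ext1S100a4Cre host (Ext1 1 to Ext1 4) right of the line. The 4 lists shown besides all genes tested are highest in Ext1S100a4Cre host tumour 1 (0.31 to 0.36) and next in tumour 4 (0.19 to 0.23).

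The members lie on 19 chromosomes, and on each the median difference of those tested was above 0, from 0.17 on chromosome 16 to 0.30 for the 1 member on chromosome 6. The 4 members on the X chromosome (Rpl10, Rpl36a, Rpl39 and Rps4x) had a median of 0.23. The 8 arrays lay on 1 slide, and each of its 2 rows held 2 tumours of either host. Within row 1 the standard members differed by a median of 0.27 with 75 of 76 higher, and within row 2 by 0.15, also with 75 higher. Each row held 1 of the 2 tumours in which the scaled members were highest, and without scaling the medians were -0.10 and 0.02.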

How the data were processed

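Gene expression was measured in 4 WT host and 4 Ext1S100a4Cre host tumours. Per the file headers, Agilent Feature Extraction 10.7.3.1 made the deposited intensity values (per the submitters' processing notes, version 9.1), with background subtracted and no scaling between arrays. The deposited series matrix holds the same intensities (100% within 0.01%).

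Control spots and outlier spots (53 to 132 per array) were left out and no spot was saturated. The log2 processed intensity was averaged over a probe's spots, minus the array's 75th percentile over all non-control spots, outlier spots included. Of the non-control spots 1.13% hold member probes. A probe was kept where at least 4 of 8 arrays read it well above background, with the brightest probe per gene. Accessions were matched, without versions, to a RefSeq table of GRCm38.p6 (32994 of 56605 probes matched), used for names and chromosomes only, since the headers name build mm9. limma 3.58.1 in R 4.3.3 compared the hosts over 31281 genes with Benjamini-Hochberg adjustment at 0.05, after the limma fit had been tested on simulated data. The simulation drew genes independently and did not cover the scaling, the filter or the choice of probes. The number of arrays limits the precision.

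The members and lists were chosen with earlier results of these data known. By rule, tumour values are given for members at unadjusted p under 0.05, paralogs and parents, the stalk, Rpsa and the largest and smallest SD, and of each other list at most 3 genes with the smallest p are named. Rps2, Rps26, Rps6, Rps24, Rpl5 and Rpl37 were chosen after their values were seen, as were members given by a difference alone. Alternatives were other scalings, normexp (offset 50), filters, probe rules, blocks, variance models, a threshold of 0.1 and tumours left out. A planned promoter motif count was not run. Some items are not reported here.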

Additional observations from a re-analysis of the deposited data

Results flagged for a closer look

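In 64 groups of 4 tumours (the named members and the members' medians) 3 had a tumour far from its own group by Dixon's criterion, where chance gives about 1 in 20. Rpl3l measured -4.98 in WT host tumour 3, and the nearest other WT host tumour -2.72. Rps27l measured 5.24 in WT host tumour 4, with the nearest at 5.51. Rps6 measured 7.11 in WT host tumour 3, with the nearest at 7.25.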

How the results depend on the processing

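No member was called under any alternative, and the lowest adjusted p of a member gene was 0.281. Unscaled, 0 members had unadjusted p under 0.05, 0 did not overlap, and the members' median difference was -0.045; the direction turned for Rpl3 (-0.105), Rpl7 (-0.0862), Rpl10 (-0.108), Rpl22l1 (-0.0509), Rpl22 (-0.122), Rpl39 (-0.0015), Rps27l (-0.189), Rps4x (-0.0249), Rplp0 (-0.0649), Rplp1 (-0.103), Rplp2 (-0.0443), Rpl5 (-0.197), Rpl11 (-0.0791), Rps24 (-0.0721), Rps6 (-0.0082), Rps27a (-0.0066) and Rps13 (-0.0834). With quantile normalization these values were 0, 6 and 0.021, and Rpl3 (-0.0178), Rpl7 (-0.0123), Rpl10 (-0.0528), Rps27l (-0.0791), Rplp0 (-0.0202), Rplp1 (-0.0267), Rpl5 (-0.0829), Rpl11 (-0.0122), Rps24 (-0.0163) and Rpl37 (0.0045) turned. Without Ext1S100a4Cre host tumours 1 and 4 there were 0 members at unadjusted p under 0.05, the median was 0.038, and Rpl3 (-0.0258), Rpl7 (-0.0423), Rpl10 (-0.0427), Rpl22l1 (-0.0418), Rpl22 (-0.0562), Rps27l (-0.123), Rpl5 (-0.132), Rpl11 (-0.0211), Rpl39l (1.15) and the ratio of Rpl39l to Rpl39 (1.06) turned. Without tumours 2 and 3 there were 63 members at unadjusted p under 0.05 (all genes 17.1%), 77 without overlap and a median of 0.378. The 2 tumours kept there are those in which the members were highest, so these counts are no test of the members. Rpl7l1 and Rpl37 turned with median scaling (0.0284 and 0.0148), with normexp (0.0262 and 0.0784) and without tumours 2 and 3 (0.122 and 0.49), and Rpl37 with array weights (0.0426).

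Members at unadjusted p under 0.05 numbered 0 with median scaling (all genes 5.39%), 1 without a filter (5.91%), 1 with slide row as a block (7.24%), 31 with array weights (10.5%), 15 with a trended and robust variance (6.75%) and 1 with the percentile over probes (6.23%, chosen after seeing the data). Members without overlap numbered 0 with median scaling, 9 with normexp and 5 with the percentile over probes. With 1 tumour left out these counts ran from 0 to 15 and from 14 to 32; the 15 (all genes 9.48%) and 32 came without Ext1S100a4Cre host tumour 3, and 24 did not overlap without WT host tumour 4. Differences then ran from -0.121 to 0.101 for Rpl7l1, -0.191 to 0.365 for Rpl37, -0.0129 to 0.126 for Rps27l, -0.958 to 0.275 for Rpl39l, -0.928 (without WT host tumour 3) to -0.127 for Rpl3l and -0.064 to 0.122 for Rpl5. The log ratios ran from -1.05 to -0.292 for Rpl3l to Rpl3, -0.0099 to 0.127 for Rpl22l1 to Rpl22 and -1.27 to 0.103 for Rpl39l to Rpl39. The cause of these shifts was not tested. Apart from the unscaled one, the counts without overlap in this section stand without the share over all genes. With fewer tumours non-overlap is easier for every gene, so such counts were not read as results about the members. With replicate number as a block 1 member had unadjusted p under 0.05 (all genes 10.4%); same-numbered tumours correlated at 0.493, -0.162, 0.591 and -0.245 in their deviations from the host means, so the numbers were not taken to pair the samples.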
